A study of Rattus norvegicus with 6 samples.

Results

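Kdr (ENSRNOG00000046829), Eng (ENSRNOG00000050190), Egfl7 (ENSRNOG00000019388), Emcn (ENSRNOG00000022910) and Esam (ENSRNOG00000033217) are genes of endothelial cells, the cells that line blood vessels. They were chosen from the 21554 genes of a rat heart count table because they had been found at higher levels in the model group, and the question asked of them was whether they differed between the groups by 1 common factor, or in size and in which model heart was highest. RNA was sequenced from the hearts of 6 male Sprague-Dawley rats, 6 to 8 weeks old when purchased. The control group was 3 rats, numbered 1, 2 and 3, given citrate buffer. The model group was 3 rats, numbered 3, 4 and 8, given a single dose of streptozotocin (STZ, 65 mg/kg), which destroys the insulin-producing cells of the pancreas, and kept until 5 months later with diabetes and diabetic cardiomyopathy (DCM). The number 3 belongs to a different rat in each group. STZ gives insulin-deficient diabetes, and every rat was male, so that form of diabetes and that sex are the ones these values describe.

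Kdr encodes VEGF receptor 2, the main signalling receptor for VEGF-A on endothelial cells. Eng encodes endoglin, a co-receptor that works with the receptor ALK1 (gene Acvrl1) for the circulating ligands BMP9 and BMP10. Egfl7 encodes a protein that endothelial cells secrete into the matrix around growing vessels and that can act on Notch signalling, and its gene carries the microRNA miR-126. Emcn encodes endomucin, a sialomucin that coats the surface of capillary, venous and endocardial endothelium and limits leukocyte contact. Esam encodes an immunoglobulin-family adhesion molecule of the tight junctions between endothelial cells. In the heart these cells form a dense capillary bed beside the cardiomyocytes.

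The sequences before the start sites are shown because endothelial promoters are known for binding ETS factors, whose core motif is GGAA. The windows are from RefSeq, assembly GRCr8, and run from 250 bases before to 50 bases after an annotated start. They covered 4 of the 5 members with 5 windows, and all lie on the plus strand. Capitals mark GGAA, or TTCC where the motif is on the other strand, and the windows are Kdr chr14:32571813-32572112, Eng chr3:36332029-36332328, Egfl7 chr3:29805381-29805680 and Emcn chr2:228564289-228564588.
Kdr: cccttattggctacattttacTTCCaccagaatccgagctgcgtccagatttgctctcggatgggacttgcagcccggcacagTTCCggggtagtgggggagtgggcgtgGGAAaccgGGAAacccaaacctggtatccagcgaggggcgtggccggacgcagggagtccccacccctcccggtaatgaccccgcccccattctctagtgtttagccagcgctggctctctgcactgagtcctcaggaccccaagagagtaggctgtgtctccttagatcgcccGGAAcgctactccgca
Eng: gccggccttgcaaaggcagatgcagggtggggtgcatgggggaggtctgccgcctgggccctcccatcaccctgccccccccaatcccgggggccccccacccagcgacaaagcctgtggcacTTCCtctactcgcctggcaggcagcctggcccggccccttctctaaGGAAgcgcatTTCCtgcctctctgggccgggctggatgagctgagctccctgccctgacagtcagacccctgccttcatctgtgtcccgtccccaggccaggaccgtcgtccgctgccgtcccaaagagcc
Egfl7: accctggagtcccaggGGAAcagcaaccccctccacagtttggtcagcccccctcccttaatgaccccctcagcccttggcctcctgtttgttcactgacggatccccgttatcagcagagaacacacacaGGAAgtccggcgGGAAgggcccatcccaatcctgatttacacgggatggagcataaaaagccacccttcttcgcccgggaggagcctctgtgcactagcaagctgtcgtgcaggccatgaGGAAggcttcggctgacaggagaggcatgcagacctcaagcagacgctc
Emcn: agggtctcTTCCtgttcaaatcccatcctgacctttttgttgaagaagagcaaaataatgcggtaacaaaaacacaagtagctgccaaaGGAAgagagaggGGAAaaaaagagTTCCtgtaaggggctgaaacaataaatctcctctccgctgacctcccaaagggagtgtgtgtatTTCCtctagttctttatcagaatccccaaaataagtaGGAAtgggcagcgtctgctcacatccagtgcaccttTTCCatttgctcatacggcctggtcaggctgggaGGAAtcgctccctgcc
Counted on both strands, GGAA occurred 5 times in the Kdr window, 3 times in Eng, 4 times in Egfl7 and 8 times in Emcn, and 2 times in the window of a second Egfl7 start (chr3:29808051-29808350). The motif is short, and 95.8% of 33469 rat windows of the same length held it, with a median of 3 matches. At least 8 matches, as in Emcn, were present in 3.90% of the windows. The SOX core ACAAT was found in 2 of the 5 windows and in 33.7% of all windows, the GATA core GATAA in 2 of the 5 and in 26.5%, and the TATA box TATAAA in 0 of the 5 and in 14.2%. These matches describe the letters and were not tested as binding sites.

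The libraries held 16617803 to 17948961 counts, and their depth did not separate the groups. The most abundant gene took between 9.72% and 19.4% of the counts of a heart. Levels are given as CPM, counts scaled to a common library size after TMM normalization, which brings the libraries to 1 scale on the assumption that most genes do not differ. The log2 CPM of control hearts correlated with each other at Pearson's r of 0.967 to 0.973 across genes, and those of model rats 4 and 8 at 0.966. Model rat 3 stood further off, at 0.934 with model rat 4 and 0.927 with model rat 8. The cardiomyocyte, pericyte and red blood cell genes had no names here, so the tissue label was not checked against them. In RNA from heart tissue, more endothelial cells and more of an RNA per endothelial cell cannot be told apart.

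All 5 genes were higher in each model heart than in any control heart, by 2.24 to 3.07 times between the group means. This contrast chose the genes, so it is a description and carries no test. As background, 8.46% of the 13895 genes that passed the filter on low counts were called higher in the model group (edgeR, adjusted p under 0.05 and log2 fold change above 1), 13.2% were called lower, and 26.4% had every model heart above every control heart. All 5 members passed the filter and were among the genes called higher. Together they made up 0.0600% to 0.0745% of all counts in control hearts and 0.197% to 0.252% in model hearts.

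The receptor gene Kdr stood at 134.5, 131.2 and 191.4 CPM in control rats 1, 2 and 3, and at 319.6, 533.6 and 550.6 CPM in model rats 3, 4 and 8. The counts behind these levels were 2084, 2256 and 3041 in the control group and 5713, 11756 and 9122 in the model group. Model rat 3 was well below the other model hearts, and the groups did not overlap. The mean went from 152.4 ± 33.8 to 467.9 ± 128.8 CPM (SD, n = 3 each), a log2 fold change of 1.62 (SE 0.28), which was the largest of the 5.

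The co-receptor gene Eng was the most abundant of the 5, with 423.6, 265.2 and 350.1 CPM in control rats 1, 2 and 3 and 610.7, 828.2 and 889.9 CPM in model rats 3, 4 and 8. As with Kdr, model rat 3 was the lowest model heart, here 1.44 times the highest control heart. The mean went from 346.3 ± 79.3 to 776.3 ± 146.7 CPM, a log2 fold change of 1.16 (SE 0.27), the smallest of the 5.

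The secreted-protein gene Egfl7 had 102.2, 84.3 and 122.5 CPM in control rats 1, 2 and 3 and 364.2, 280.1 and 240.8 CPM in model rats 3, 4 and 8. Here model rat 3 was the highest heart, and the gap between the groups was the widest of the 5, with the lowest model heart at 1.97 times the highest control heart. The mean went from 103.0 ± 19.1 to 295.1 ± 63.0 CPM, a log2 fold change of 1.52 (SE 0.24).

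The sialomucin gene Emcn had the lowest counts of the 5, 929, 755 and 1061 in control rats 1, 2 and 3 and 3988, 2236 and 2350 in model rats 3, 4 and 8. These gave 60.0, 43.9 and 66.8 CPM against 223.1, 101.5 and 141.8 CPM. Model rat 3 was again the highest heart, at 3.92 times the control mean, whereas model rat 4 was at 1.78 times. The mean went from 56.9 ± 11.7 to 155.5 ± 61.9 CPM, a log2 fold change of 1.45 (SE 0.30), and 1.04 without model rat 3.

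The junction gene Esam had 125.0, 93.1 and 97.2 CPM in control rats 1, 2 and 3 and 313.8, 286.9 and 214.5 CPM in model rats 3, 4 and 8. The order of the model hearts was that of Egfl7. The mean went from 105.1 ± 17.3 to 271.7 ± 51.3 CPM, a log2 fold change of 1.37 (SE 0.23).

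**Figure D1:**
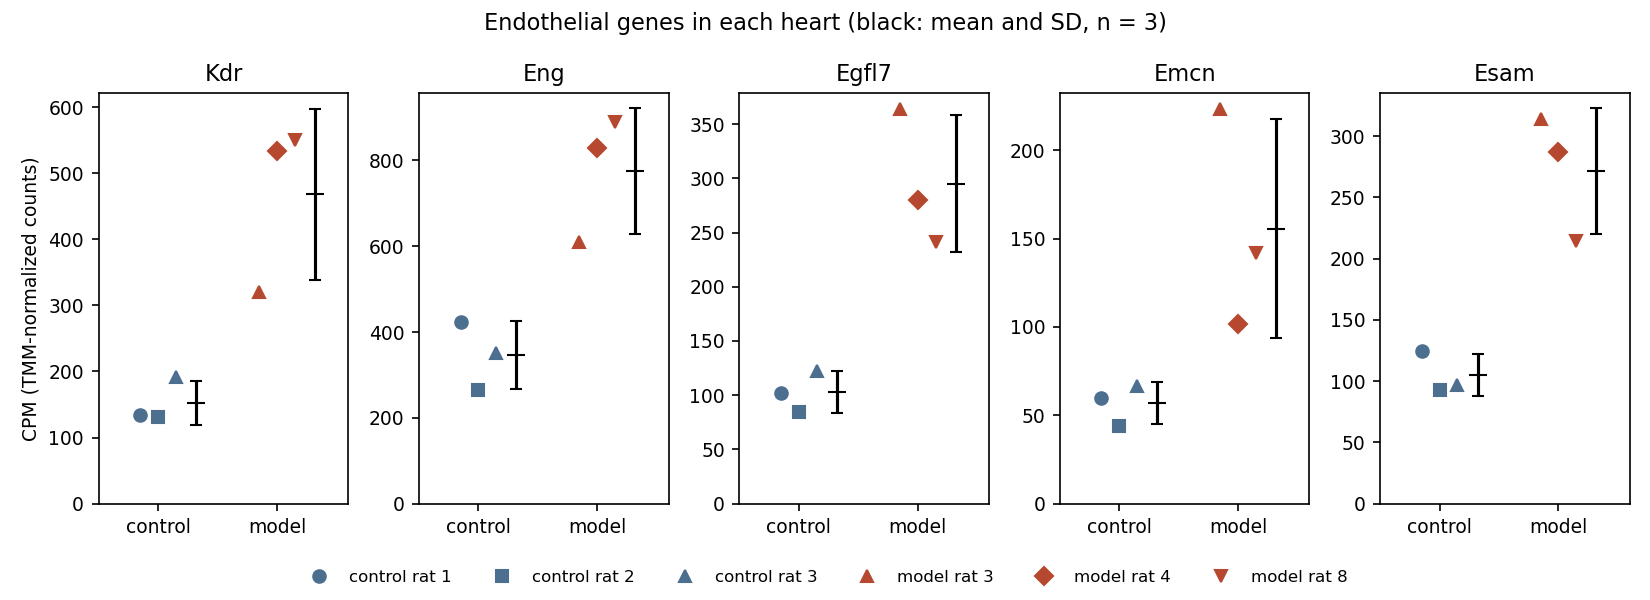
TMM-scaled CPM (y axis, from 0, a separate scale for each gene) of Kdr, Eng, Egfl7, Emcn and Esam in 3 control hearts (blue) and 3 model hearts (red), 1 symbol per rat, with the mean and SD of each group in black (n = 3). Every model heart lies above every control heart, and model rat 3 (red triangle pointing up) is lowest for Kdr and Eng and highest for Egfl7, Emcn and Esam.

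The counting error of a single value was 0.740% to 3.64%, far below the differences between hearts, where the CV was 16.5% to 22.9% within the control group and 18.9% to 39.8% within the model group. This error covers counting only, since reads copied in PCR are not independent molecules. The median CV of the 5 genes was 20.7% in control and 21.4% in model hearts. For all genes called higher the medians were 23.2% and 29.1%, so the members' medians were below those of these genes, although Emcn alone, at 39.8% in model hearts, was above.

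The group differences of the 5 genes lay close to each other. Their log2 fold changes spanned 0.45, a ratio of 1.37 between the largest and the smallest, and each had a standard error of 0.23 to 0.30. Their median was 1.45, beside 1.41 over the 1175 genes called higher and 0.076 over all genes tested. Of the genes tested, 3.45% had a larger log2 fold change than Kdr and 8.55% a larger one than Eng, with Egfl7, Emcn and Esam between them. The order of the 5 by size was not stable. Without model rat 3 the span became 0.74, with Kdr largest and Emcn smallest, and over the hearts left out in turn it ran from 0.20 to 0.74.

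**Figure D2:**
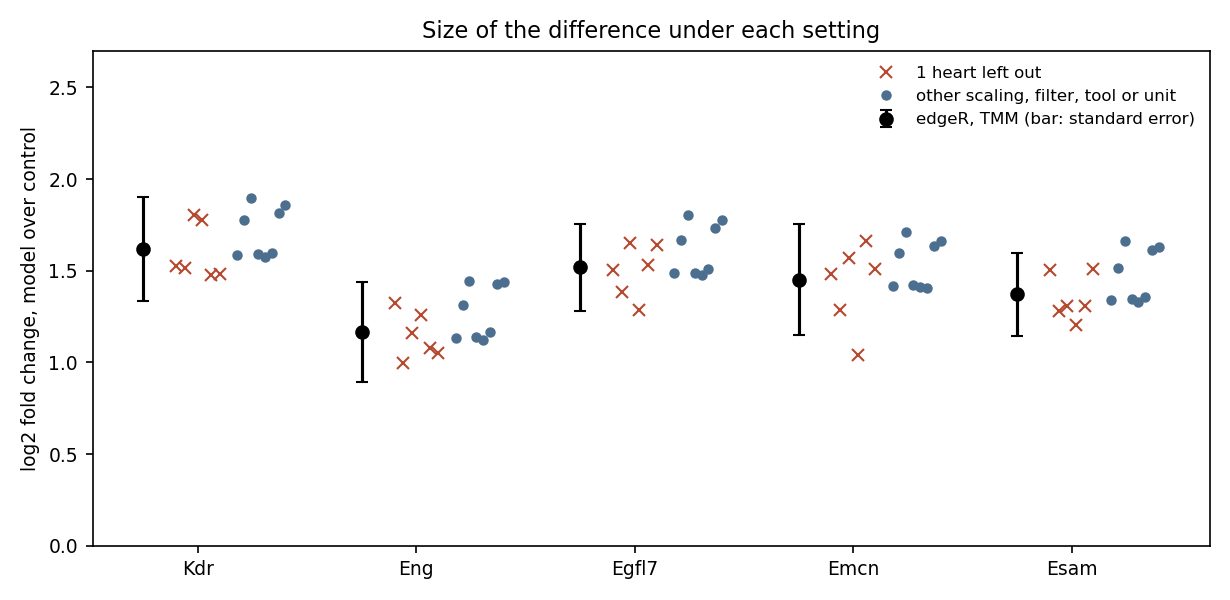
Log2 fold change of model over control (y axis) of each gene in edgeR with TMM scaling (black, bar: standard error), with 1 heart left out in turn (red crosses) and under another scaling, filter, tool or unit (blue points). Values under every setting lie between 0.995 and 1.90. The standard error bars of the 5 genes overlap, which is no comparison of the genes within the same hearts.

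A ratio between the counts of a pair of genes within a heart does not depend on how libraries are scaled. It stays constant across hearts if both genes move by the same factor. In all 10 pairs of members the ratios of the model hearts overlapped those of the control hearts. The geometric mean ratio of the model group over that of the control group ran from 0.789 for Eng over Egfl7 to 1.34 for Kdr over Eng. When each tested gene was set over each member, 72.7% of the ratios did not overlap between the groups, and when each gene called higher was set over a member, 9.91% did not. A lack of overlap was thus rare wherever both genes were chosen for being higher, and 0 of 10 for the members is a description of such genes.

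The same ratios varied widely among the model hearts. Kdr over Emcn was 2.24, 2.99 and 2.87 in control rats 1, 2 and 3 and 1.43, 5.26 and 3.88 in model rats 3, 4 and 8. The control hearts lay between the model hearts, which differed from each other by 3.67 times. Eng over Emcn was 7.06, 6.04 and 5.24 in the control group and 2.74, 8.16 and 6.27 in the model group, and model rat 3 again had the lowest ratio of all 6 hearts.

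Kdr over Egfl7 was 1.32, 1.56 and 1.56 in control rats 1, 2 and 3 and 0.877, 1.91 and 2.29 in model rats 3, 4 and 8. In model rat 3 the receptor gene had fewer counts than Egfl7, which occurred in no other heart. Eng over Egfl7 was 4.15, 3.15 and 2.86 against 1.68, 2.96 and 3.69. The ratio of Egfl7 over Esam was the steadiest among the model hearts, at 1.16, 0.976 and 1.12, where control hearts had 0.818, 0.905 and 1.26.

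The receptor pair Kdr over Eng was 0.318, 0.495 and 0.547 in control rats 1, 2 and 3 and 0.523, 0.644 and 0.619 in model rats 3, 4 and 8. Control rat 1 was apart from the other hearts here, with much Eng for its Kdr. Egfl7 over Emcn was 1.70, 1.92 and 1.84 against 1.63, 2.76 and 1.70, so model rat 4 alone departed, with little Emcn for its Egfl7.

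In 8 of the 10 pairs the highest over the lowest ratio was larger among model hearts than among control hearts. The median over the pairs was 1.40 in control and 2.17 in model hearts. For genes called higher set over a member these medians were 1.64 and 1.95, and for all tested genes 1.67 and 1.92, so ratios were wider in the model group for those genes too. The counting error of a ratio was at most 2.57% to 4.49%, depending on the pair. Without model rat 3, 3 of the 10 pairs no longer overlapped between the groups, namely Kdr over Eng, Kdr over Egfl7 and Kdr over Emcn, with log2 ratios higher in the model group by 0.52, 0.50 and 0.75. Overlap was also lost for Kdr over Eng (0.58) and Egfl7 over Esam (0.33) without control rat 3, and for Egfl7 over Emcn (-0.13) without model rat 4. Each of these settings leaves 2 hearts in a group, where groups separate more easily. The share over all genes was not taken for these settings, so the losses of overlap are descriptions without a background. The 3 pairs without model rat 3 all contain Kdr and are not independent of each other. Without model rat 3 the log2 difference of Eng over Egfl7, the lowest of the 10 with all hearts, was -0.015, and that of Eng over Emcn went from -0.23 to 0.24.

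**Figure D3:**
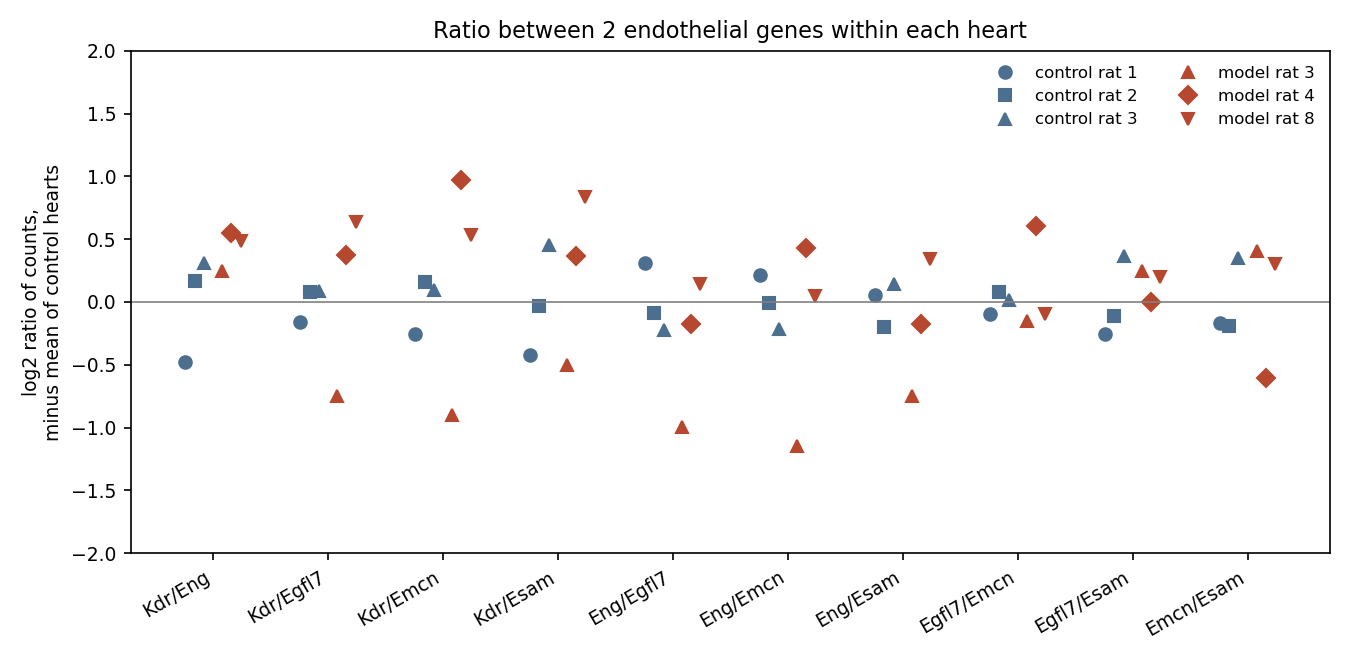
Log2 ratio of counts between the members of each of 10 gene pairs in each heart (y axis), minus the mean of the 3 control hearts (line at 0), for control rats (blue) and model rats (red). The groups overlap in all 10 pairs, and model rat 3 is the lowest point wherever Kdr or Eng is set over Egfl7, Emcn or Esam.

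How much of the difference between hearts 1 common factor carried depended on which hearts were compared. Over all 6 hearts, a factor shared by the 5 genes held 88.6% of the variation in log2 CPM, most of it the difference between the groups for which the genes were chosen. Among the control hearts it held 63.1%, and this rested on control rat 2, where all 5 genes were below their control mean: without it the share was 2.99%. Among the model hearts it held 1.88% (16.3% when libraries were scaled by their totals and 1.04% with upper quartile scaling). With TMM scaling the 5 genes as a set were nearly level across the model hearts. Their geometric mean on that scale was 2.77, 2.60 and 2.60 times that of the control group in model rats 3, 4 and 8, beside 1.08, 0.831 and 1.12 in control rats 1, 2 and 3. As a share of all counts the 5 genes together were highest in model rat 4, at 0.252%, beside 0.197% in model rat 3 and 0.200% in model rat 8.

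What was left after the common factor had a root mean square of 0.146 on the log2 scale in control hearts and 0.319 in model hearts. In model rat 3, Kdr and Eng lay 0.57 and 0.39 below the common factor (values of -0.57 and -0.39), while Emcn, Egfl7 and Esam lay 0.53, 0.26 and 0.16 above it. In model rat 4 Emcn was at -0.51, and in model rat 8 no gene departed by more than Kdr, at 0.31. Without model rat 3 the root mean square of the model group was 0.153, within the 0.098 to 0.165 found among pairs of control hearts.

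Of the counts of the 5 genes together, Eng held the largest share in every heart, 50.1%, 42.9% and 42.3% in control rats 1, 2 and 3 and 33.3%, 40.8% and 43.7% in model rats 3, 4 and 8. Emcn held 7.09%, 7.11% and 8.06% in the control group and 12.2%, 5.0% and 6.96% in the model group. The share of Emcn in model rat 3 was thus above, and that in model rat 4 below, all control hearts. Kdr held 15.9%, 21.2% and 23.1% against 17.5%, 26.3% and 27.0%.

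Per length, in the deposited FPKM (fragments per kilobase of gene length, scaled by library totals), the order of the levels in every control heart was Eng, Esam, Emcn, Egfl7 and Kdr. The control means were 85.3 ± 15.8 FPKM for Eng, 52.9 ± 7.08 for Esam, 35.3 ± 5.70 for Emcn, 21.3 ± 3.11 for Egfl7 and 19.7 ± 3.87 for Kdr (SD, n = 3). Egfl7 and Kdr differed by less than their SD, and the other neighbours by more. In the model group the means were 232.3 ± 50.9, 167.1 ± 43.8, 115.3 ± 42.6, 74.2 ± 18.2 and 73.5 ± 22.9 FPKM in the same order, where Eng and Esam, and Esam and Emcn, differed by more than either SD. Emcn and Egfl7 differed by less than the larger of their SDs, and Egfl7 and Kdr by less than both. Each model heart had an order of its own. In model rat 3 Esam (187.0 FPKM) was above Eng (178.8 FPKM), and in model rat 4 Kdr (94.4 FPKM) was above both Emcn (86.3 FPKM) and Egfl7 (79.3 FPKM). In model rat 8 Kdr (77.1 FPKM) was above Egfl7 (53.9 FPKM).

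Which model heart was highest differed between the genes, and partly with the scaling. Egfl7 and Emcn were highest in model rat 3 under all of TMM, RLE and upper quartile scaling, library totals and FPKM. Kdr and Eng were highest in model rat 8 and Esam in model rat 3 under TMM, RLE and upper quartile scaling, and all 3 of these genes were highest in model rat 4 with library totals and FPKM. Kdr and Eng were lowest in model rat 3 under each of these scalings. Library totals alone also raised the median log2 fold change of all genes tested from 0.076 to 0.345, and the 5 members rose with it, for example Esam from 1.37 to 1.66.

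**Figure D4:**
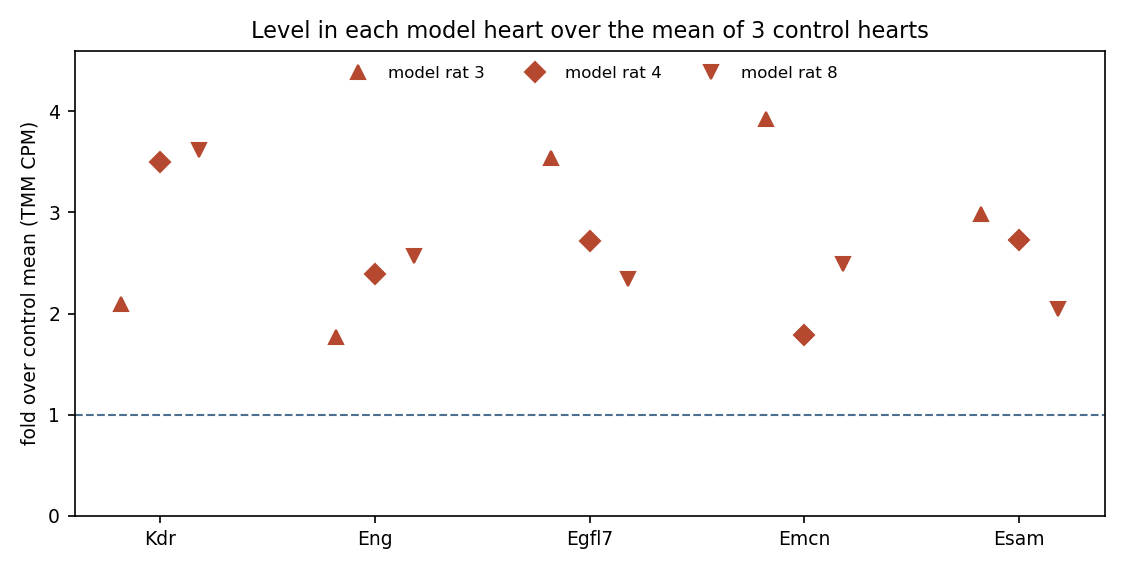
TMM-scaled CPM of each gene in model rats 3, 4 and 8 divided by the mean of the 3 control hearts (y axis, fold, dashed line at 1). Kdr reaches 2.10, 3.50 and 3.61 and Emcn 3.92, 1.78 and 2.49 in the same 3 hearts, while Eng spans the lowest values, from 1.76 to 2.57.

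Model rat 3 differed from the other model hearts in more than the 5 genes. Of the 1175 genes called higher, 66.9% had their highest value there (60.1% with library totals), 16.4% in model rat 4 and 16.7% in model rat 8. The log2 level in model rat 3 minus the mean of model rats 4 and 8 was -0.76 for Kdr and -0.49 for Eng, with 95.5% and 91.6% of the genes called higher above them. It was 0.49 for Egfl7, 0.89 for Emcn and 0.34 for Esam, with 48.2%, 20.9% and 57.6% of those genes above. Relative to other higher genes, therefore, Kdr and Eng were near the low end in model rat 3, and Egfl7 and Esam near the middle.

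Some features were set beside the difference of model rat 3 from the other model hearts. Kdr has the longest of the 5 gene models (7025 bases from the FPKM values) and Emcn the shortest (1461 bases), with 4390 for Egfl7, 3674 for Eng and 1805 for Esam. The 5 genes did not follow length in order. Egfl7 is longer than Eng, but its log2 difference in model rat 3 was 0.49, and that of Eng was -0.49. Across the 1175 higher genes, the difference of model rat 3 from the other model hearts had a Spearman's rho of -0.160 with length, as a description over genes that share these libraries. The rho was similar over all 13895 genes tested, at -0.146. S100a8 and S100a9 of the neutrophil list were highest there, while its genes Csf3r and Ncf4 were highest in model rat 8. The neutrophil list had 4 of 5 genes named and none at 0, with a summed level of 5.58 to 6.17 CPM in control hearts and 45.2, 12.9 and 21.0 CPM in model rats 3, 4 and 8. Most of the sum in model rat 3 was S100a9 (25.3 CPM) and S100a8 (10.1 CPM), beside 5.26 CPM for Csf3r and 4.53 CPM for Ncf4. S100a9, a calcium-binding protein of neutrophils, had 22, 33 and 40 counts in the control group and 453, 126 and 107 in the model group. Their part in the levels of the 5 genes was not tested.

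The genes that act with the members could be named only where the study's own list of higher genes pairs an identifier with a symbol. Of 179 symbols listed for these pathways and for cell types, 46 had a name, all 46 were tested, 42 were called higher and 43 did not overlap between the groups. Because names came from a list of higher genes, these counts and directions are fixed by that list and say nothing about the pathways as wholes. Only the values of single genes are therefore described, and genes without a name, such as Flt1, Tek, Pecam1 and Cdh5, were not analysed here.

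Around Kdr, 3 of 17 listed genes were named. Vegfa, its main ligand, had 193.1, 244.0 and 196.1 CPM in control rats 1, 2 and 3 and 685.8, 408.7 and 248.7 CPM in model rats 3, 4 and 8, with a log2 difference of 1.08 (SE 0.35). The ligand was highest in model rat 3, where the receptor was lowest, and without that heart its log2 fold change was 0.59 and the call was lost, as it was without any of 4 other hearts. Angpt2, which encodes angiopoietin-2, a ligand of the receptor Tek released by activated endothelium, had a log2 fold change of 1.28 (SE 0.37) and followed Kdr in being lowest in model rat 3. Esm1, a VEGF-responsive proteoglycan of endothelial tip cells, overlapped between the groups at 4.52 to 6.92 CPM in control hearts and 14.2, 4.54 and 27.1 CPM in model rats 3, 4 and 8, and was not called.

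Around Eng, 5 of 22 listed genes were named. Acvrl1, which encodes its partner receptor ALK1, had 124.8, 88.9 and 93.5 CPM in the control group and 263.0, 249.6 and 215.7 CPM in the model group, a log2 fold change of 1.25 (SE 0.21). Its size was close to that of Eng, but with TMM scaling its highest model heart was rat 3 and not rat 8. With library totals Eng itself was highest in model rat 4. The inhibitory Smad genes Smad6 and Smad7, targets of this signalling that damp it, had log2 fold changes of 1.84 (SE 0.31) and 1.66 (SE 0.41), and both stood out in model rat 4, with 122.3 and 227.6 CPM. Without that heart Smad7 had 0.96 and lost its call. Id1 and Id3, early target genes of BMP receptors, had log2 fold changes of 1.78 (SE 0.26) and 1.08 (SE 0.16). Id3 was almost level among the model hearts, at 153.3, 153.6 and 148.1 CPM.

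Around Egfl7, 4 of 15 listed Notch genes were named. The endothelial receptor gene Notch4 had 133.9, 99.7 and 101.4 CPM in the control group and 319.8, 259.7 and 170.8 CPM in model rats 3, 4 and 8, with the hearts in the order of Egfl7. Its log2 fold change was 1.16 (SE 0.27). The ligand gene Dll4 (1.08, SE 0.20) and the target gene Hey1 (1.83, SE 0.22) were instead highest in model rat 4, and Mfng, a glycosyltransferase that modifies Notch receptors, had 1.27 (SE 0.16).

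The row named Mir126a (ENSRNOG00000035591), at the Egfl7 gene, had 12, 5 and 11 counts in the control group and 84, 94 and 46 in the model group, a log2 fold change of 2.74 (SE 0.48). Its length, 118 bases, equals that of the RefSeq hairpin on the minus strand at chr3:29813150-29813267 (GRCr8), opposite the Mir126b hairpin. Strand was not stated for the counting, so reads from the Egfl7 transcript and from either hairpin cannot be told apart, and libraries of long RNA do not measure the mature microRNA. The mature sequences of the locus are shown, with the seed (bases 2 to 8) in capitals, as the products of the locus that this row does not measure.
rno-miR-126a-3p: uCGUACCGugaguaauaaugcg
rno-miR-126a-5p: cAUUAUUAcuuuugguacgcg
rno-miR-126b: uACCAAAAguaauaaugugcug
The 3 seeds are all different, so these microRNAs form no group by seed.

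Around Emcn, 7 of 11 listed sialomucins, selectins and their partners were named. Icam1 and Vcam1, adhesion molecules that leukocytes bind on activated endothelium, had log2 fold changes of 2.32 (SE 0.24) and 1.70 (SE 0.32). Selp and Sele, the P- and E-selectins of endothelium, had 2.11 (SE 0.71) and 1.82 (SE 0.27), at levels below 20 CPM. Selp lost its call without any heart but model rat 4, with voom, and with log2(FPKM + 1), where its value was 0.59. Madcam1, another mucin-like adhesion molecule, had 3.02 (SE 0.46) at 0.233 to 0.516 CPM in control and 2.69 to 3.18 CPM in model hearts. Vcam1 shared with Emcn its low place in model rat 4, at 15.5 CPM beside 26.8 and 34.5 CPM in model rats 3 and 8. Around Esam, 1 of 14 junction genes was named, Icam2, with 1.18 (SE 0.21).

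Of the capillary genes, 7 of 12 were named, all through the list of higher genes. Rbp7, a retinol-binding protein of capillary endothelium, had 33.8, 16.9 and 25.1 CPM in the control group and 589.4, 246.2 and 212.6 CPM in the model group, a log2 fold change of 3.79 (SE 0.46), and 3.13 without model rat 3. Gpihbp1, which carries lipoprotein lipase to the capillary surface, had 60.5, 33.3 and 34.0 CPM against 523.6, 484.0 and 385.6 CPM (3.45, SE 0.31). Cd300lg had 2.66 (SE 0.33) and the fatty acid-binding protein gene Fabp4 2.36 (SE 0.45), or 1.70 without model rat 3. Of the other named capillary genes, Btnl9 had 1.56, Rgcc 1.64 and Meox2 1.28, within or near the 1.16 to 1.62 of the 5 members.

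Vwf, the clotting factor stored by endothelium, had 237.3, 130.4 and 177.1 CPM in the control group and 528.1, 919.2 and 666.4 CPM in the model group (1.96, SE 0.31), and was lowest in model rat 3, as Kdr and Eng were. The general endothelial genes Clec14a, Icam2 and Ushbp1 had 1.23, 1.18 and 1.31 and were highest in model rat 3 with TMM scaling, as Egfl7, Emcn and Esam were. With Vwf they were 4 of 20 listed endothelial identity genes, all named through the list of higher genes, and the others had no name. The 4 lymphatic genes named of 7 listed, Lyve1, Ccl21, Mmrn1 and Reln, had 2.03, 2.80, 2.57 and 2.17. Control rat 2 stood apart for Ccl21 (75.3 CPM beside 17.6 and 17.6 CPM) and Mmrn1 (419 counts beside 127 and 70 counts), and without it these genes had 3.86 and 3.53, while Reln had 1.56 without model rat 8 and lost its call. Their summed level was 39.5 to 125.7 CPM in control and 378.3 to 513.2 CPM in model hearts, and none was at 0. Outside endothelium, the named macrophage genes Cd163 and Lyz2 had 1.24 and 1.32, the fibroblast gene Postn 2.75 and the mesothelial gene Wt1 1.35. Postn was 1 of 10 listed fibroblast genes and Wt1 1 of 6 listed mesothelium and adipocyte genes, and the others had no name. Summed over Cd163 and Lyz2, 2 of 10 listed macrophage and leukocyte genes, the level was 63.6 to 70.2 CPM in control and 114.3 to 203.3 CPM in model hearts. The part of these cell types in the levels of the 5 genes was not tested.

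**Figure D5:**
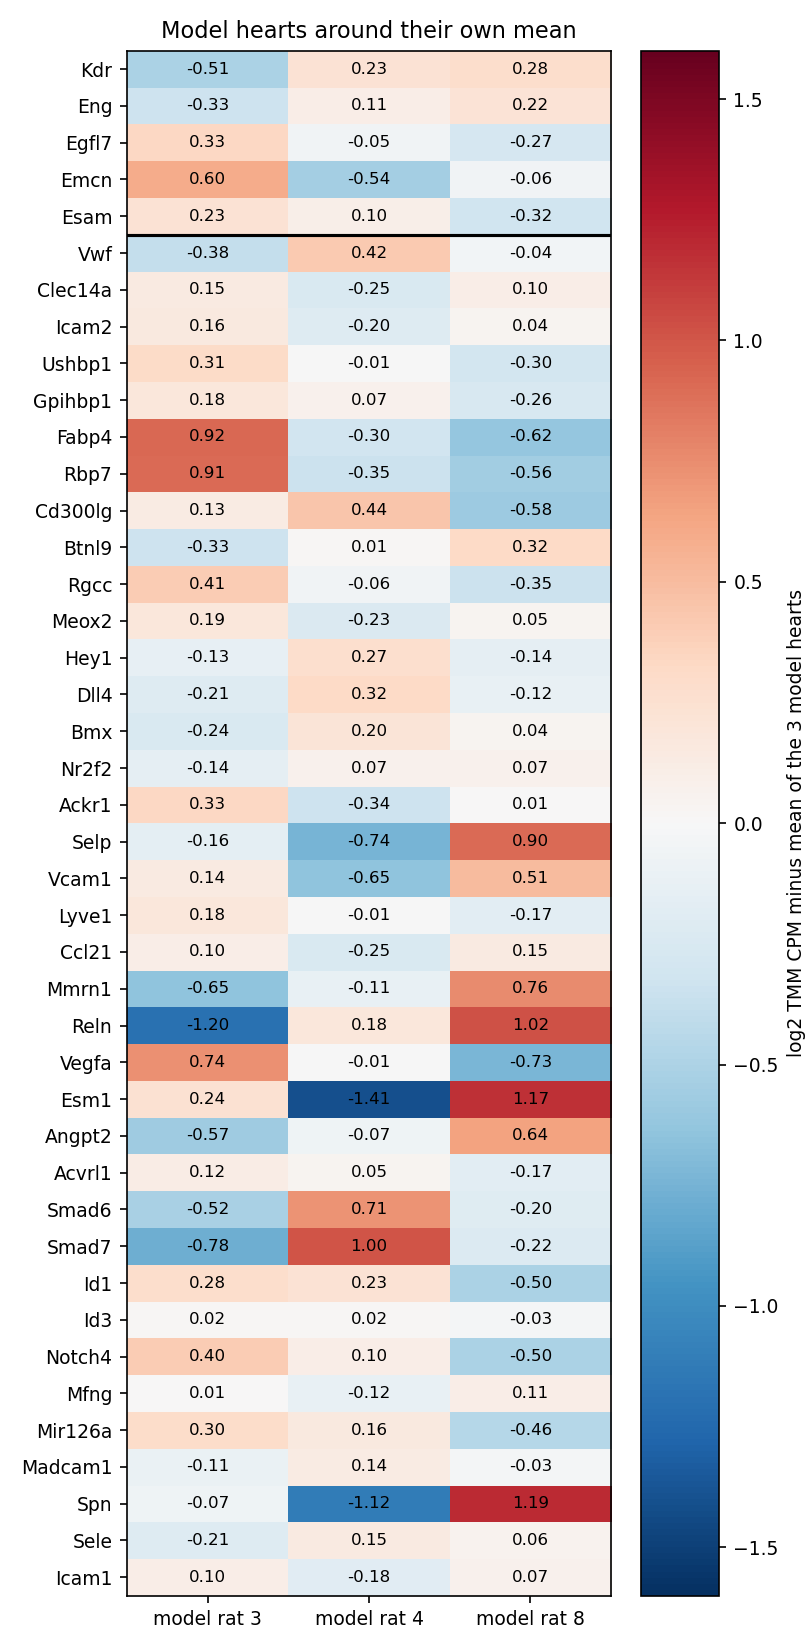
Log2 TMM-scaled CPM in model rats 3, 4 and 8 minus the mean of these 3 hearts (colour and printed value) for the 5 members (above the line) and 37 named genes of the endothelial and partner lists. Of the 37 genes, 16 were highest in model rat 3, 11 in model rat 4 and 10 in model rat 8, so no single order of the hearts runs through the panel.

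The named genes whose pattern over the 6 hearts was most like each member were found by the root mean square distance of their log2 CPM after centring, among the 9179 tested genes whose mean log2 CPM reached 3. For Kdr they were Prag1 (0.13), Btnl9 (0.17), an immunoglobulin-family gene of capillary endothelium, and Slc6a6 (0.17), the taurine transporter. For Eng they included the endothelial transcription factor Sox18 (0.13) and Arhgap29 (0.14). For Egfl7 they were Nucb2 (0.10), the splicing factor Srsf5 (0.11) and Taf1d (0.12), and for Emcn the pentose phosphate enzyme Tkt (0.13), Gsta6 (0.14) and Wsb1 (0.15). For Esam they were Ephx1 (0.04), an epoxide hydrolase, Fes (0.06) and the endothelial gene Ushbp1 (0.07).

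The members lay farther from each other than from these genes. That was nearly assured, because these genes were picked as the nearest among 9179. The closest pair was Egfl7 and Esam at 0.22, followed by Egfl7 and Emcn at 0.26, and Kdr and Eng lay at 0.33. Kdr and Emcn were farthest apart, at 0.59. Counted from Kdr, 37 genes lay nearer than Eng and 978 nearer than Emcn. From Egfl7, 45 genes lay nearer than Esam. The counts were larger from the other side, with 542 genes nearer to Eng than Kdr, 2074 nearer to Emcn than Kdr and 152 nearer to Esam than Egfl7. With 6 hearts and 9179 genes some close neighbours are found for any gene, and these distances are descriptions.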

How the data were processed

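Total RNA from the hearts of 3 control and 3 model rats was extracted with TRIzol and sequenced on an Illumina NovaSeq after NEBNext Ultra library preparation. The authors deposited raw, unnormalized counts for 21554 Ensembl identifiers. The authors also deposited FPKM, which equal these counts divided by 1 length per gene and by the library total. The submitters' processing notes name HISAT2 2.0.5, StringTie 1.3.3b and the build mRatBN7.2. The counting tool, its strand setting and the annotation are not given in the sources used here. Counts were fitted with edgeR 4.0.16 (R 4.3.3: filterByExpr, TMM, quasi-likelihood test) on the 13895 of 20347 genes with a count that passed the filter. Genes were called where the Benjamini-Hochberg adjusted p over all genes tested was under 0.05 and the size of the log2 fold change above 1, and the standard error is the log2 fold change over the square root of F. The fit was tested on simulated data with 200 changed genes. Alternatives were other scalings (RLE, upper quartile, library totals), no filter, DESeq2 1.42.0, limma 3.58.1 (voom, and on log2 FPKM with a pseudocount of 1 or 0.1) and each heart left out in turn. Python 3.11.15, scipy 1.17.1 and matplotlib 3.10.9 made the summaries.

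The 5 members and all gene lists were chosen with earlier results of these data known, so no p-value is given for them. The common factor of a heart is the mean, over the 5 genes, of the log2 CPM minus the mean of that gene over the hearts compared. Correlations between hearts were taken on log2 CPM (prior count 2). Named genes were the members, each listed gene with a name that was among the 3 largest changes of its list past both thresholds or was a ligand, receptor or partner of a member, and for each member the 3 nearest named genes, of which 1 is not reported here, nor is 1 listed gene. Other listed genes are named only as markers of other cell types or as values chosen after they were seen. Names came from the part of the study's list of higher genes that was read, which pairs 1076 identifiers with a symbol, 1015 of them tested. No lower gene could be named, and only 2 of 18 lists had at least 80% of their genes named, so list counts and tests are void. Sequences came from RefSeq, assembly GRCr8. That is another build than the one in the processing notes, so its coordinates were used for sequences only. The samples are separate rats, and 3 per group limit the precision of each value. No columns held the same values.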

Additional observations from a re-analysis of the deposited data

How the results depend on the processing

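The direction of each of the 5 members held under every alternative tried. This was nearly assured, because they were chosen for being higher in this contrast. Their log2 fold changes ran from 0.995 to 1.90, and 69 of 70 values moved by less than 1 SD of the replicates. The exception was Esam with library totals alone, at 1.66. For the values with 1 heart left out, a move below 1 SD was nearly assured. With each heart left out in turn, Kdr ran from 1.48 to 1.81, Eng from 0.995 to 1.33, Egfl7 from 1.29 to 1.65, Emcn from 1.04 to 1.66 and Esam from 1.20 to 1.51, and the largest minus the smallest of the 5 from 0.20 to 0.74. The lowest value of Emcn and the widest span were those without model rat 3. All 70 values of the ratios between members stayed within the spread of the hearts, but this outcome was fixed in advance. FPKM gives the same ratios as counts, and leaving out 1 of 3 hearts cannot move a group mean past that spread. Some differences changed sign. Kdr over Egfl7 went from 0.085 to -0.19 without model rat 8, and Eng over Emcn from -0.23 to 0.24 without model rat 3. Genes called higher numbered 2300 with library totals alone and 2101 with log2(FPKM + 0.1), and 657 to 1279 with 1 heart left out, where 657 was without control rat 2 and 678 without control rat 3. Genes called lower numbered 1088 with log2(FPKM + 1), and 1488 to 1950 with 1 heart left out. The cause of these shifts was not tested. The split of higher and lower genes was 1175 and 1839 with TMM, 1706 and 1550 with upper quartile scaling and 2300 and 1359 with library totals. Of 644 values of 46 listed genes, 31 lost and 20 gained the call, and 0 changed sign. The lack of sign changes was nearly assured, because these genes were named through a list of higher genes. The gains were in Bmx, Esm1, Ncf4 and Spn. Vegfa lost it with voom and without any 1 of control rats 1, 2 and 3 and model rats 3 and 4 (0.59 to 1.19), Notch4 without control rat 2 or 3 or model rat 3, Angpt2 without control rat 2 or 3 or model rat 8, Dll4 without model rat 4, Smad7 without control rat 1 or 3 or model rat 4, Reln without control rat 1 or 3 or model rat 8, Csf3r with log2(FPKM + 1) and without control rat 2 or 3, and Selp with voom, with log2(FPKM + 1) and without any heart but model rat 4. No paired analysis was possible because number 3 is the only replicate number in both groups, and it stands for different animals there. Small counts, such as those of Mir126a, limit what these libraries show.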
